A study of Mus musculus with 44 samples.

Results

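Tnfsf10, Tnfrsf1a and Mcl1 are 3 genes that decide between death and survival of a cell, and their m6A peaks were followed through 8 peak lists of mouse liver RNA. The genes were chosen by the presence or absence of their peaks in these lists, which differed between treatments. Their peaks were all those carrying the gene's Ensembl identifier or lying within its span in the mouse build mm10. This gave 34 of the 17573 peaks in the lists, at 3 of 1420 loci with any peak. All 34 carried the identifier of their own gene, lay inside its span and were on its strand, the plus strand. The values below therefore describe the members, and none of them is a test.

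N6-methyladenosine (m6A) is a methyl mark within messenger RNA that reader proteins use to set the splicing, translation and decay of a transcript. In MeRIP, RNA is captured with an antibody against m6A, and a peak is a stretch of transcript with more reads in the capture than in a reference library. Tnfsf10 encodes TRAIL, a ligand that starts apoptosis through death receptors. Tnfrsf1a encodes the main receptor of tumour necrosis factor, which can signal inflammation and survival through NF-kB or death through caspase-8. Mcl1 encodes a short-lived relative of Bcl-2 that holds back mitochondrial apoptosis, and hepatocytes depend on it.

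The RNA came from livers of male C57Bl/6J mice on a high-fat diet with 42% of its energy from fat, which all 4 treatments shared. The exposed animals received Aroclor1260, PCB126 or Aroclor1260 + PCB126 as 1 oral exposure at week 2 of a study of 12 weeks, and the others were vehicle controls. This follows the sample labels, whereas the series text speaks of treatment over the 12 weeks, and which of these holds was not settled. Aroclor1260 was sold as a blend of biphenyls with many chlorine atoms. PCB126 is 1 biphenyl of dioxin-like shape, a strong activator of the aryl hydrocarbon receptor. Neither the doses nor the age of the animals was stated. Each treatment had 5 m6A libraries, 5 input libraries of the same kind of RNA without capture, and 1 library from pooled RNA captured with control IgG.

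Each list held the peaks of a whole treatment, with the m6A libraries set against either input or IgG. No value belonged to a single animal, so the values have no replicate error, and treatments could not be compared with the spread between mice. Against input, the lists held 506 peaks after Aroclor1260, 2178 after PCB126, 2284 after the combination and 620 in the control. Against IgG they held 2082, 4129, 3683 and 2091 in the same order. Read depth was unknown, and a gene with no peak may have been too little expressed or too shallowly covered to give one, which was not tested. Among markers of liver cells, hepatocyte genes with a peak in any list were 5 of 7 (Apob, Ttr, Apoa1, Cyp2e1 and Fgb, but not Alb or Serpina1a). Of all protein-coding genes, 5.86% had a peak in any list. In single lists against input the hepatocyte genes numbered 1 after Aroclor1260, 2 after PCB126, 5 after the combination and 2 in the control. Against IgG they numbered 4, 4, 5 and 3 in the same order. Kupffer cell, cholangiocyte and lymphocyte markers had 0 of 5, 0 of 4 and 0 of 4, the endothelial list had Bmp2 alone of 5 and the stellate list Dcn alone of 5. The plus strand held 95.2% of the peaks, so a gene without a peak is not thereby a gene without m6A.

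The sequences upstream of the 3 start sites are shown because they mark the places from which distances are counted. They come from RefSeq on GRCm38.p6, the assembly behind mm10, and are the 250 bases before the start on the plus strand. No sequence under the peaks is shown, since the promoter table ends 50 bases into each gene and the nearest peaks began beyond it. Capitals mark the letters of a GC box (GGGCGG on either strand).
Tnfsf10, chr3:27316827-27317076: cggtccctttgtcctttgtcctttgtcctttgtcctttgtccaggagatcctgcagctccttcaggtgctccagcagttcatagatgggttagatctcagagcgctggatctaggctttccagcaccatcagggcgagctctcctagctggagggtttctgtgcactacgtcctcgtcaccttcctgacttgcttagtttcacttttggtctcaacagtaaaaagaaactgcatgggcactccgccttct
Tnfrsf1a, chr6:125349473-125349722: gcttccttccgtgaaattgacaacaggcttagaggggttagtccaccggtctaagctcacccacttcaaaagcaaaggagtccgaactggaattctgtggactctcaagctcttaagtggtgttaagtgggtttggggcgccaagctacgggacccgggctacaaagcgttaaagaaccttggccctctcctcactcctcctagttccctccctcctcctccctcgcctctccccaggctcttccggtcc
Mcl1, chr3:95658471-95658720: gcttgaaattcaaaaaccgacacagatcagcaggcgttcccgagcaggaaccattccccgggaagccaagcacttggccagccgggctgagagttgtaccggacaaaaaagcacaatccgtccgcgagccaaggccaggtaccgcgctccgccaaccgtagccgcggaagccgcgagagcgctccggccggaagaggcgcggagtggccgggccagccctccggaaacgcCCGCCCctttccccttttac

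The Mcl1 stretch was the richest in CG dinucleotides, with 26, against 9 upstream of Tnfrsf1a and 6 upstream of Tnfsf10. The median over all 32851 promoter stretches of this length was 6. The GC box letters were found once, upstream of Mcl1 from 20 to 15 bases before the start, and 32.7% of all stretches held them. The core letters bound by the aryl hydrocarbon receptor, GCGTG on either strand, were in none of the 3 stretches and in 28.2% of all. The TATA box letters, TATAAA on either strand, were also in none of the 3 and in 12.4% of all. No motif overlapped another. A missing match says only that these letters are not in these windows.

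Tnfsf10, the ligand gene, had a peak in the PCB126, combination and control lists with either reference, and none after Aroclor1260 with either. After Aroclor1260 it had 0 peaks against input and 0 against IgG. After PCB126 its single peak had a fold enrichment, a ratio of m6A capture over the reference library that the authors' caller gave, of 19.3 against input and 28.6 against IgG. After the combination the fold enrichments were 12.9 against input and 12.7 against IgG. In the control they were 7.29 against input and 11.8 against IgG. The Aroclor1260 lists were thus the only ones of the 8 without a Tnfsf10 peak. A loss in Aroclor1260 against both references, meaning a peak in both control lists and in neither exposed list, was found at 25 loci, or 1.76% of the 1420. The combination also contained Aroclor1260, and its lists held the peak. Fold enrichments of separate lists are given side by side and are not compared, since each list was called on its own. With each input list held to its 506 peaks of lowest false discovery rate, the Tnfsf10 peak was also absent after PCB126 and after the combination and remained in the control. With 2082 peaks per IgG list it was absent after PCB126 and present after the combination and in the control. These lengths are those of the Aroclor1260 lists, which were therefore not cut.

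The authors' false discovery rates of the 6 Tnfsf10 peaks ran from 1.55e-07 to 2.82e-05, far inside the bound of the lists, whose largest value was 0.049. All 6 peaks lay at the same place, chr3:27335368-27335865. That is 18291 to 18788 bases after the start site and 3800 bases before the end of the gene. With the end of the gene as 100%, their midpoints lay at 82.0 to 82.2% of the distance from the start. Their edges differed by at most 50 bases at either side, and a stretch of 398 bases, chr3:27335418-27335815, was covered in all 6 lists. Each peak was 1 unbroken block of 498 bases, or of 448 in the control lists, with no splice junction inside it. The median exonic width of a peak was 191 to 201 bases in these 6 lists, and 13.6 to 23.5% of the peaks in each list were as wide. The table of genes used here gives spans without exons or coding limits, so whether the peak lies in coding sequence or in a UTR was not determined.

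Within its own lists Tnfsf10 stood in the upper part. Its fold enrichment was below the upper decile of loci in the control against input (7.29 against 9.226). The same held in the combination against IgG (12.7 against 13.7), and in its other lists it was above. By strongest fold enrichment it was number 28 of 688 loci after PCB126, 53 of 718 after the combination and 40 of 255 in the control, all against input. Against IgG it was number 34 of 1098, 123 of 994 and 52 of 597 in the same order. It had 1 peak in each list, although 488 of the 1098 PCB126 loci against IgG had at least 4. It was therefore a gene with a single, wide and strongly enriched site.

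Peaks in all 6 other lists and none in those of Aroclor1260 were found at 15 loci, or 1.06%, which includes Tnfsf10. A peak in both lists of PCB126 and of the control was found at 15.0% of loci, and in both lists of the combination and of the control at 14.9%. Among the other 14 loci with the presence pattern of Tnfsf10, 13 had a symbol, and likeness was the mean absolute difference in log2 strongest fold over the 6 lists. Zbtb10, a zinc finger gene, was closest with a mean difference of 0.61, before Zcchc2, which encodes a CCHC-type zinc finger protein, with 0.68, and Mtmr10, a member of the myotubularin family, with 0.74. The median over the 14 loci was 0.85. Against input, Zbtb10 reached 8.67 after PCB126, 8.56 after the combination and 5.44 in the control.

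Tnfrsf1a, the receptor gene, had no peak in the control with either reference and had peaks in each of the 3 exposures against IgG. Against input it had a peak after Aroclor1260 alone. After Aroclor1260 it had 1 peak against input, with a fold enrichment of 2.84, and 3 against IgG, with 1.47, 2.2 and 4.52. After PCB126 it had 0 peaks against input and 4 against IgG, with 1.72, 1.4, 4.6 and 4.84. After the combination it had 0 against input and 4 against IgG, with 1.6, 3.0, 4.4 and 7.45. In the control it had 0 peaks against input and 0 against IgG. For PCB126 and the combination a Tnfrsf1a peak thus depended on the reference, and for Aroclor1260 both references gave one. A gain in Aroclor1260 against both references, meaning a peak in both exposed lists and in neither control list, was found at 14 loci, or 0.986% of the 1420, among them Tnfrsf1a and Mcl1. Against IgG alone, a peak in the exposure and none in the control was found at 12.8% of loci for Aroclor1260, 40.1% for PCB126 and 33.2% for the combination.

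The 12 Tnfrsf1a peaks fell at 5 places, and those near the end of the gene were the widest and most enriched. The place shared by all 4 lists with a Tnfrsf1a peak was chr6:125361737-125362335, which ends 148 bases before the end of the gene. There the fold enrichments were 2.84 and 4.52 after Aroclor1260 against input and IgG, 4.84 after PCB126 and 7.45 after the combination against IgG. The peaks spanned 200, 549, 499 and 599 bases in the same order, and the stretch chr6:125361837-125362036 was covered in all 4. This was the strongest Tnfrsf1a peak of each of those lists. Its false discovery rates ran from 2e-11 after the combination against IgG to 7.41e-05 after Aroclor1260 against input.

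The other places of Tnfrsf1a appeared against IgG only. Peaks at chr6:125361111-125361587, with fold enrichments of 2.2 to 4.6, and at chr6:125360507-125360793, with 1.4 to 3.0, were present in all 3 exposures. The peaks between 1.4 and 3.0 crossed a splice junction in each exposure, between bases 125360573 and 125360710. A peak of 150 bases that began 102 bases after the start site, at chr6:125349825-125349974, was in the PCB126 list alone with 1.72. A peak at chr6:125358080-125358323, split by a gap of 143 bases, was in the combination list alone with 1.6. In all, 5 of the 12 peaks crossed a junction, at 3 different ones. By fold enrichment, both peaks found in 1 list lay in the lower part of that list, at number 3731 of 4129 and number 3376 of 3683.

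**Figure D1:**
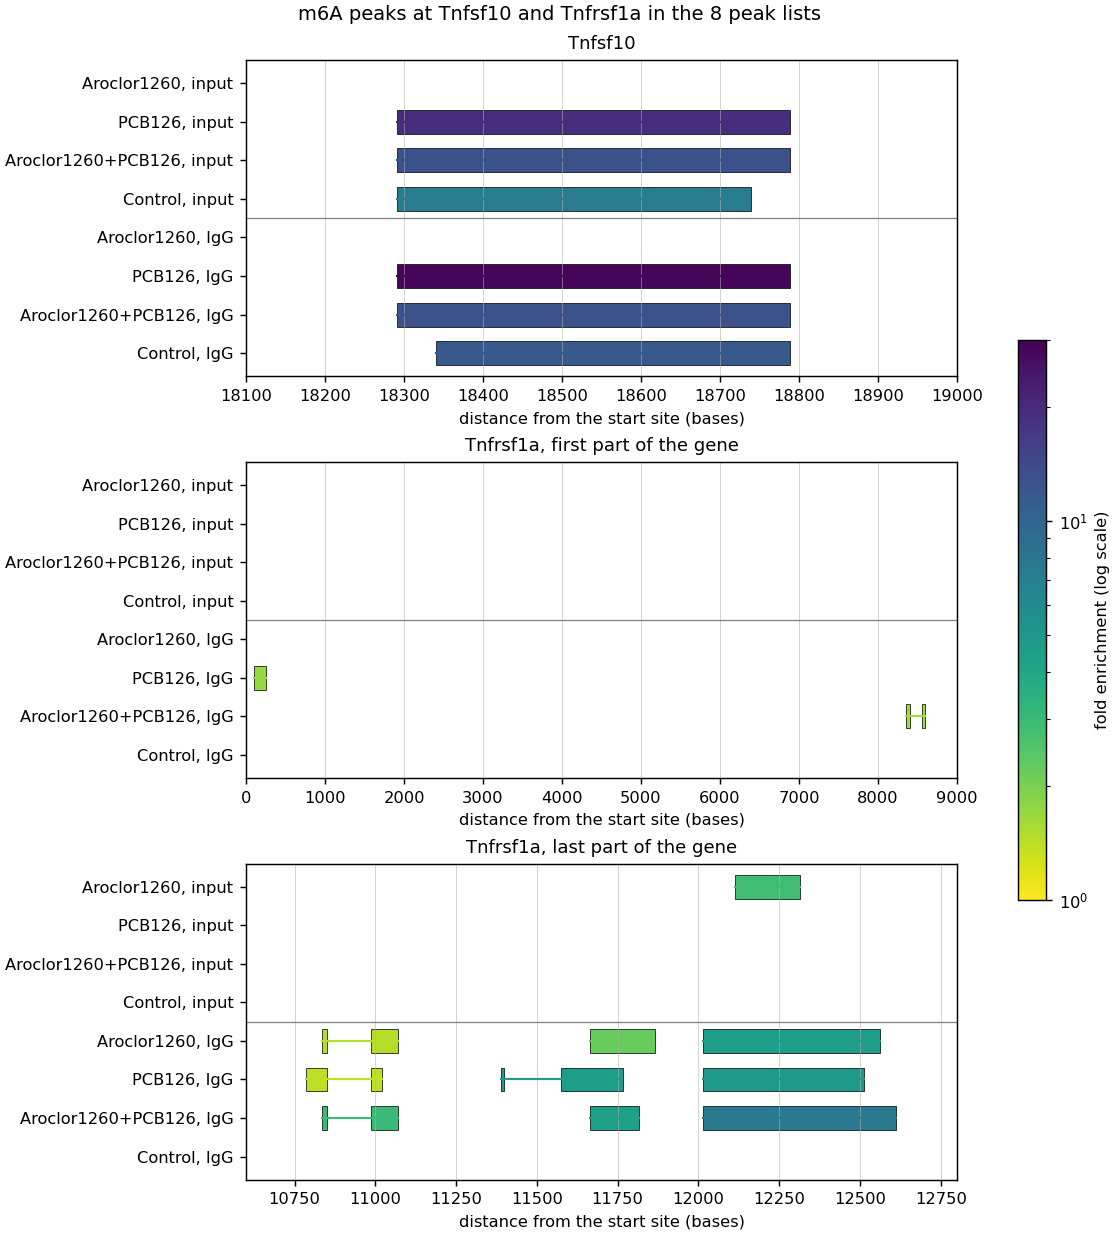
Position of m6A peaks at Tnfsf10 (top) and at the first and last parts of Tnfrsf1a (middle and bottom), in bases from the start site on the horizontal axis, for each list named by treatment and reference; boxes are exonic blocks, lines join blocks of 1 peak, and colour gives fold enrichment on a log scale. The Tnfsf10 peak keeps its place in 6 lists and is missing from both Aroclor1260 lists, and the Tnfrsf1a peak that ends 148 bases before the end of the gene recurs in 4 lists.

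Mcl1, the survival gene, had no peak in the control with either reference and had peaks after Aroclor1260 and after the combination with both. After Aroclor1260 it had 2 peaks against input, with fold enrichments of 2.21 and 1.61, and 3 against IgG, with 1.5, 2.67 and 5.6. After PCB126 it had 0 peaks against input and 5 against IgG, with 4.6, 5.6, 3.45, 5.6 and 1.45. After the combination it had 3 peaks against input, with 1.25, 4.73 and 2.18, and 3 against IgG, with 1.72, 5.5 and 3.5. In the control it had 0 peaks against input and 0 against IgG. Mcl1 thus had 16 peaks in 5 lists, against 12 in 4 for Tnfrsf1a and 6 in 6 for Tnfsf10. A peak in both lists of the combination and in neither control list was found at 14.2% of loci, among them Mcl1, and the same call for PCB126 was made at 15.1%, with none of the 3 genes.

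Distances at Mcl1 count from base 95658721, the start site of the promoter table, since the gene span of the RefSeq table begins earlier, at 95656944. The Mcl1 peaks fell at 3 places, all in the first 2573 bases after the start site of a gene that runs on for another 1885 bases. The middle place, chr3:95659085-95660002, held 9 peaks from 5 lists with fold enrichments of 1.25 to 5.6. The place farther on, chr3:95660749-95661294, held 6 peaks from the same number of lists with 1.45 to 5.6. The place nearest the start, chr3:95658838-95658937, began 117 bases after it and held 1 peak of 4.6, after PCB126 against IgG. The stretches chr3:95659853-95659952 and chr3:95660898-95660997, of 100 bases each, were covered in all 5 lists with an Mcl1 peak. The sites of all 3 exposures therefore coincided at both stretches, those of PCB126 against IgG only.

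At the middle place 4 of the 9 peaks crossed the splice junction between bases 95659487 and 95659761, a gap of 273 bases. They were found after Aroclor1260 with both references, and after PCB126 and the combination against IgG. After the combination against input, separate peaks lay on either side of that junction, with fold enrichments of 1.25 before it and 4.73 after it. In human cells, splicing that leaves out the middle exon of this gene turns the survival factor into a short form that promotes death. The lists give no measure of splicing, and none was made.

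Of the Mcl1 peaks after Aroclor1260 against input, 1 stood close to the bound of its list. Against input their false discovery rates were 0.00102 and 0.0447, and the largest in that list was 0.0468. After the combination against input, all 3 peaks had 0.000186. Against IgG the rates ran from 0.000158 to 0.0055 after Aroclor1260, from 0.000219 to 0.00468 after PCB126 and were 5.13e-05 for all peaks of the combination. Within each list the Mcl1 peaks shared 1 p-value, whatever their fold enrichment and even where their false discovery rates differed, so the authors' p-value does not rank the sites of this gene. With a false discovery rate of at most 0.001, Mcl1 had 0 peaks after Aroclor1260 against input and 1 against IgG. With 506 peaks per input list it had 0 after the combination. With 2082 peaks per IgG list it had 0 after PCB126 and after the combination. Its 3 peaks after Aroclor1260 could not change, since 2082 is the full length of that list.

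**Figure D2:**
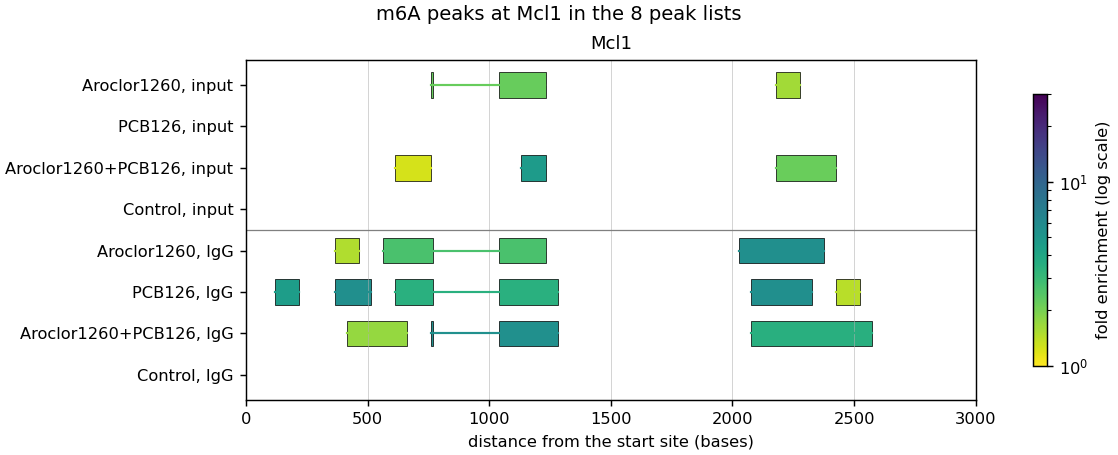
Position of m6A peaks at Mcl1, in bases from the start site on the horizontal axis, for each list named by treatment and reference; boxes are exonic blocks, lines join blocks of 1 peak across a splice junction, and colour gives fold enrichment on a log scale. Peaks of 5 lists overlap at the middle place and at the one farther on, and both control lists and the PCB126 list against input are empty.

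Tnfrsf1a and Mcl1 had nearly the same pattern over the lists. They differed in 1 of 8, the combination against input, where Mcl1 had a peak and Tnfrsf1a had none. Tnfsf10 differed from Tnfrsf1a in 6 lists and from Mcl1 in 5. No other locus shared the exact pattern of Tnfrsf1a or of Mcl1, and 18 and 22 of the other 1419 loci differed from them in 1 list. The 3 exposures were set against the same control lists, so their differences from the control are not independent of each other.

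A peak in all 3 exposures against IgG and in no control list of either reference was found at 81 loci, or 5.7%, which include both genes. Mcl1 was no longer among them with 2082 peaks per IgG list. Since the genes were chosen by these calls, nothing is read from the shares.

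The exonic length under peaks shows how much of the calls depended on the reference. At Tnfrsf1a the peaks covered 850 exonic bases after Aroclor1260, 950 after PCB126, 952 after the combination and 0 in the control against IgG. Against input they covered 200 bases after Aroclor1260 and 0 in the other lists. At Mcl1 they covered 845 bases after Aroclor1260, 996 after PCB126, 993 after the combination and 0 in the control against IgG. Against input they covered 299 bases after Aroclor1260, 0 after PCB126, 498 after the combination and 0 in the control. At Tnfsf10 the covered length was the same with both references in every treatment.

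**Figure D3:**
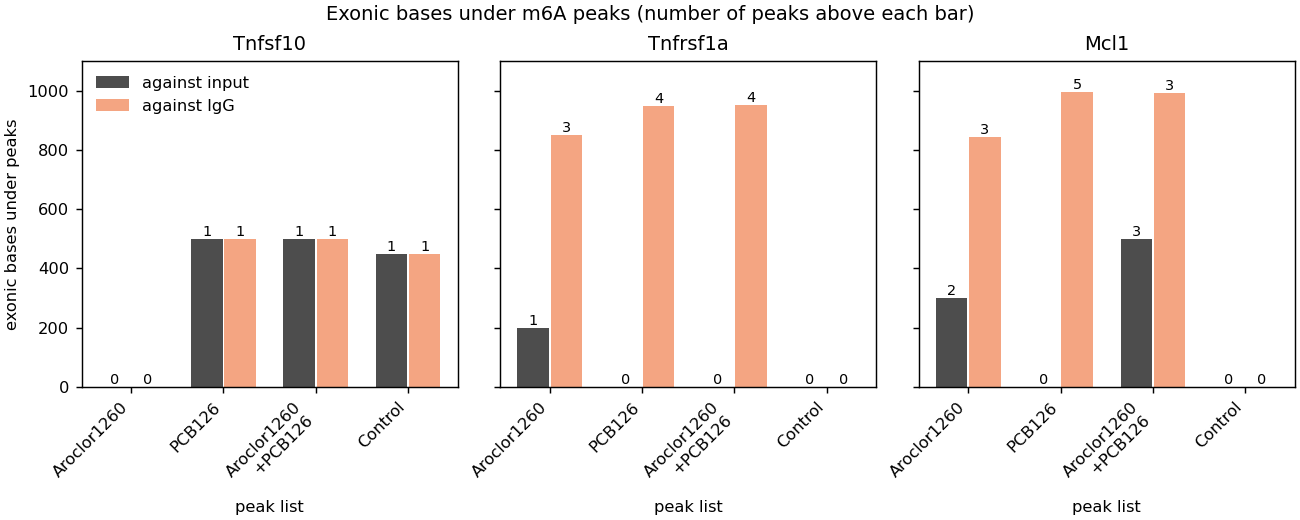
Exonic bases under m6A peaks on the vertical axis for Tnfsf10, Tnfrsf1a and Mcl1, by treatment on the horizontal axis, with bars for the lists against input and against IgG and the number of peaks printed above each bar. Tnfsf10 has bars of 498 or 448 bases everywhere but after Aroclor1260, and the control bars of Tnfrsf1a and Mcl1 stand at 0.

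The fold enrichments against IgG were coarse. Among peaks with a fold enrichment under 10, those that were whole multiples of 0.2 (within 1e-06) made up 54.9% after Aroclor1260, 68.3% after PCB126, 61.1% after the combination and 57.0% in the control against IgG. Against input the shares were 9.9%, 16.4%, 13.6% and 14.5% in the same order. Of the 22 such peaks of the 3 genes against IgG, 10 lay on this step, among them the 3 Mcl1 values of 5.6, and 0 of the 7 against input did. Each IgG list set 5 m6A libraries against 1 IgG library, and whether that produced the steps was not tested.

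By strongest fold enrichment, Tnfrsf1a and Mcl1 were unremarkable members of their lists. Tnfrsf1a was number 120 of 229 loci after Aroclor1260 against input. Against IgG it was number 267 of 601 after Aroclor1260, 680 of 1098 after PCB126 and 313 of 994 after the combination. Mcl1 was number 157 of 229 after Aroclor1260 and 283 of 718 after the combination against input. Against IgG it was number 193 of 601, 587 of 1098 and 479 of 994 for Aroclor1260, PCB126 and the combination. Both genes therefore lay near the middle of lists in which Tnfsf10, where present, lay in the upper part.

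**Figure D4:**
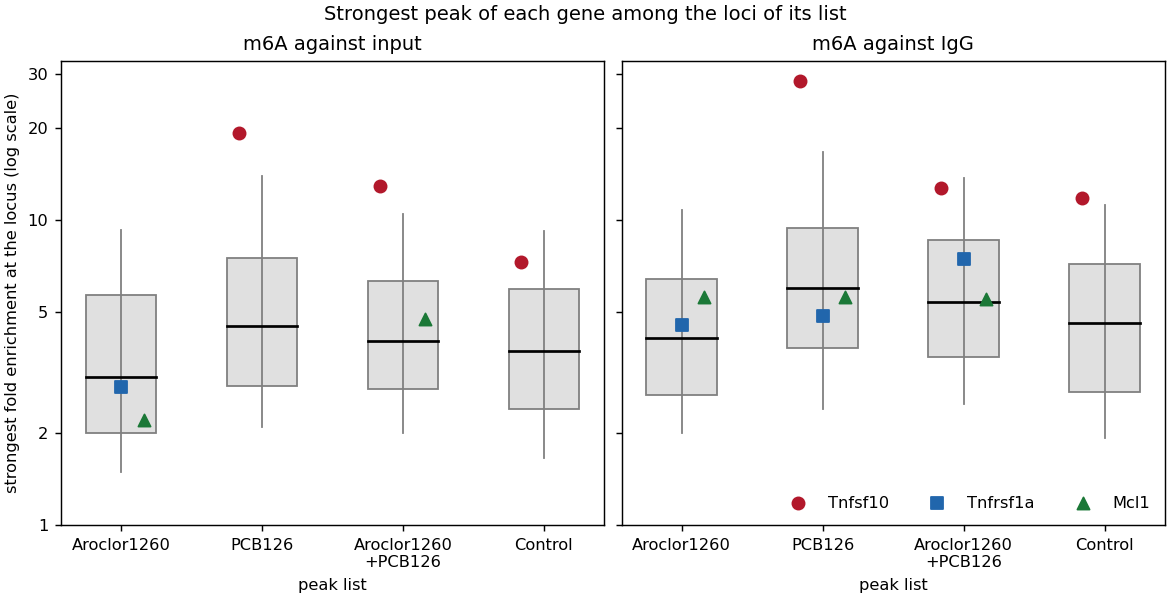
Strongest fold enrichment of each gene (points, log scale) in the 4 lists against input (left) and the 4 against IgG (right); the boxes span the 25 to 75 percentiles of all loci of that list, the bars mark the median and the lines the 10 to 90 percentiles. Tnfsf10 lies above the box in each of its 6 lists, at 7.29 to 28.6, and the Tnfrsf1a and Mcl1 points, at 2.21 to 7.45, lie within the boxes.

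The 8 pathway lists covered ligands, receptors, receptor complexes, Bcl-2 relatives, factors listed for Mcl-1 turnover, executioner enzymes, NF-kB and stress kinases. Of their 99 genes other than the members, 6 had a peak in any peak list. Of all 21900 protein-coding genes of the RefSeq table, 1283, or 5.86%, had one, so the pathway lists stood near that share. Of the 99, those with a peak numbered 1 after Aroclor1260, 4 after PCB126, 4 after the combination and 1 in the control against input. Over all protein-coding genes the shares with a peak were 0.941%, 2.85%, 2.94% and 1.02% in the same order. Against IgG the numbers were 2, 6, 5 and 4, and the shares over all protein-coding genes 2.47%, 4.58%, 4.11% and 2.45%. Nothing is read from the differences between these counts. The promoter table placed 37 of the 99 on the plus strand, of which 3 had a peak, and 43 on the minus strand, of which 1 had. The table gave no single strand for the other 19, of which 2 (Usp9x and Trib1) had peaks, so peaks lay on the plus strand at 5 of the 6 genes. The executioner list had a peak at 0 of 12 genes, the NF-kB list at 0 of 12 and the Bcl-2 list of 18 at Mcl1 alone, and nothing is read from such counts in lists this short.

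Among receptors, Fas, which binds Fas ligand and starts apoptosis, was the only one of 11 with a peak besides Tnfrsf1a. Against input it had 0 peaks after Aroclor1260, 2 up to 2.67 after PCB126, 1 of 3.38 after the combination and 0 in the control. Against IgG it had 1 peak of 3.8, 2 up to 5.4, 3 up to 5.4 and, in the control, 3 up to 4.2, so its control list was not empty as those of Tnfrsf1a were. Casp8, which encodes the caspase that death receptors activate, was the only gene of 27 in the receptor complex with a peak. It had 2 peaks up to 3.73 after PCB126, 2 up to 1.8 after the combination and 0 in the control against IgG, and none in any list against input.

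Of the 6 factors listed for turnover of Mcl-1, 3 had peaks. Among them Trib1 was listed without evidence here that it acts on Mcl-1. Usp9x, a deubiquitinase that stabilises Mcl-1, had 0 peaks after Aroclor1260, 5 up to 4.8 after PCB126, 7 up to 5.27 after the combination and 9 up to 3.8 in the control against IgG. Against input it had 4 up to 4.4 after PCB126, 5 up to 3.27 after the combination and 0 in the other lists. Huwe1, a ubiquitin ligase that marks Mcl-1 for decay, had 9 peaks up to 7.4 after PCB126 and 11 up to 5.0 in the control against IgG, and 0 in the other 6 lists. Trib1, an adaptor of the ubiquitin ligase COP1, had peaks in all 8 lists, with 6 after Aroclor1260, 3 after PCB126, 7 after the combination and 4 in the control against input. Usp9x and Huwe1 therefore had no peak after Aroclor1260 and had control peaks against IgG. Unlike Tnfsf10, both had 0 control peaks against input, and Huwe1 had none after the combination either. The share of all loci with such a loss against IgG alone is not given here, so nothing is read from these genes.

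Jun, a stress-induced transcription factor gene on the minus strand, had 0 peaks after Aroclor1260, 4 up to 6.0 after PCB126, 2 up to 4.83 after the combination and 0 in the control against input. Against IgG it had 0, 4 up to 7.6, 3 up to 6.4 and 0 in the same order. It was the only one of the 99 genes with a peak in both lists of an exposure and in neither control list, in PCB126 and in the combination. That gain was found at 0.89% of all protein-coding genes for PCB126 and 0.831% for the combination, and at 15.1% and 14.2% of the 1420 loci with a peak, so 1 gene of 99, or of the 6 with a peak, is near the background. With Aroclor1260, 0 of the 99 had a gain or a loss against both references, against 0.0639% and 0.0868% of all protein-coding genes.

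**Figure D5:**
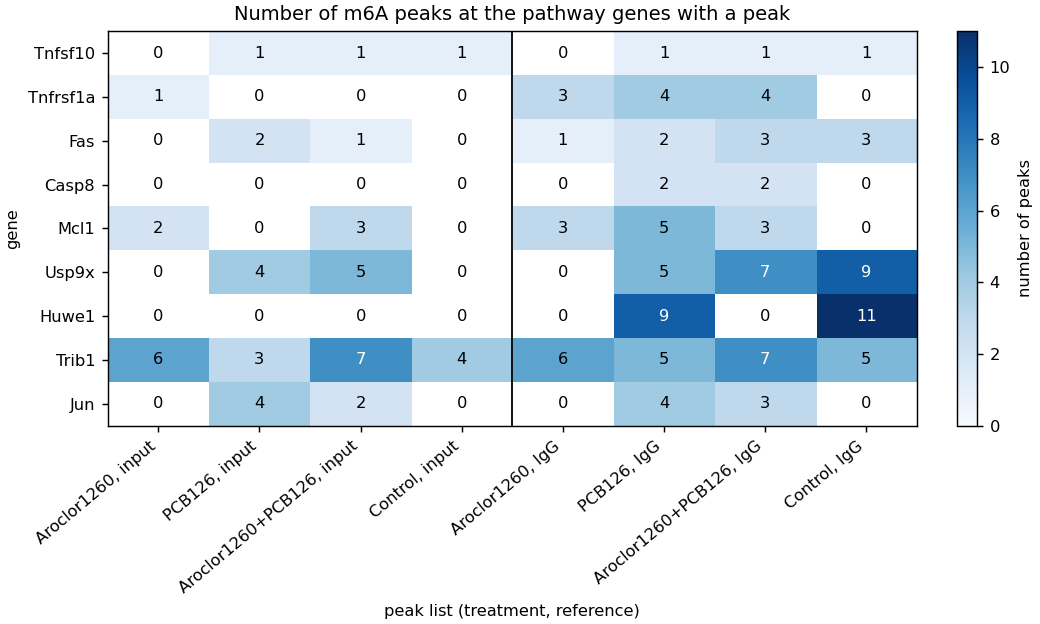
Number of m6A peaks (printed and coloured) at the 9 genes of the pathway lists with a peak in any list, by gene on the vertical axis and by treatment and reference on the horizontal axis. The control columns hold 0 for Tnfrsf1a, Mcl1, Casp8 and Jun with either reference, and the Aroclor1260 columns hold 0 for Tnfsf10, Casp8, Usp9x, Huwe1 and Jun.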

How the data were processed

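The build was mm10, and BWA 0.7.17, Trimmomatic, FastQC 0.10.1 and bcl2fastq 2.20.0.422 are named, per the submitters' processing notes. The authors deposited 8 lists of peaks, which carry the name of the caller MeTPeak. Its settings and annotation were not stated. Per the file headers, each peak had the authors' fold enrichment (a linear ratio), p-value, log10 of the p-value and log10 of the false discovery rate. Peak lists of 5 m6A libraries each hold no value per animal, so no test across animals was made.

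Peaks were read with Python 3.11.15 and pandas 2.3.3. Coordinates count from 1. Ensembl identifiers were named by the RefSeq gene of GRCm38.p6 that held at least 80% of their exonic peak bases, or the only protein-coding one, which named 1395 of 1512. This step was tried only on simulated identifiers with a single unbroken peak inside a protein-coding gene. Spliced peaks and identifiers with several peaks were not simulated. Start sites were taken from the promoter table. Places are overlapping peak spans of any list joined together.

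Every gene of the pathway lists with a peak is named, and for likeness up to 3 loci with the member's presence pattern. The members and gene lists were chosen with earlier results of these data known. Alternatives changed the reference, the filters, list length, assignment and overlap.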

Additional observations from a re-analysis of the deposited data

How the results depend on the processing

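Each value is the number of peaks in an exposure minus that in the control, against input. The Tnfsf10 difference after Aroclor1260 was -1 under all 8 alternatives run. The Aroclor1260 lists held 0 Tnfsf10 peaks before any filter, so a filter could move this value only by removing the control peak. The gene was also chosen by its calls in these lists, so the unchanged value is no support. The Tnfsf10 differences after PCB126 and the combination were 0. They moved to -1 with the 506 peaks of lowest false discovery rate per list, and for PCB126 also with 2082 per list against IgG. At Tnfrsf1a, IgG gave 3 in place of 1 after Aroclor1260, and 4 in place of 0 after PCB126 and after the combination, also with equal list lengths and with a false discovery rate of at most 0.001. At Mcl1 after Aroclor1260, 2 became 1 with a fold enrichment of at least 2, 0 with a false discovery rate of at most 0.001, and 1 with that rate against IgG. At Mcl1 after PCB126, 0 became 5 against IgG, 3 with the stricter rate as well, and stayed 0 with equal lengths. At Mcl1 after the combination, 3 became 2 with a fold enrichment of at least 2, and 0 with equal lengths against either reference. The pairs of lists that shared a Tnfrsf1a place fell from 6 to 3 with a reciprocal overlap of 50%. Assigning peaks by identifier alone or by any overlap changed none of these numbers. Identifier alone could not, since all 34 peaks carried that of their own gene. The alternatives that joined IgG with equal lengths or with the stricter rate were added after seeing the data. With equal lengths fewer peaks are kept by construction, except in the Aroclor1260 lists, whose lengths of 506 and 2082 set the limit. Those lists were not cut, so their counts under equal lengths were fixed in advance and are no support. The cause of the other changes was not tested. No paired analysis was possible because the lists hold no value per animal, and for the same reason no replicate could be left out. Depth behind the lists is unknown, and 1 IgG library per treatment limits the fold enrichments against it.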

Other observations

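Peaks of the same identifier often shared a p-value. Among identifiers with more than 1 peak in a list, the peaks that shared their p-value with another peak of that identifier made up 71.9% after Aroclor1260, 78.7% after PCB126, 74.9% after the combination and 80% in the control against input. Against IgG the shares were 77.2%, 80.2%, 79.6% and 76.8% in the same order. The Mcl1 peaks, with 1 p-value per list, were of this kind, whereas the Tnfrsf1a peaks against IgG had 3 different p-values in each exposure.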
